A study of Mus musculus with 4 samples.

Results

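The genes described here are the Notch receptors Notch1, Notch2, Notch3 and Notch4, their ligands Dll1, Dll4, Jag1 and Jag2, and the target genes Hes1 and Hey1. They were chosen by gene symbol, and all 10 symbols matched a single row each of a deposited table of 56748 genes. All 10 had enough counts to be tested, as did 15167 genes in all. RNA came from lungs with metastases of 4T1, a cell line of mouse triple-negative breast cancer (TNBC). Female BALB/cJ mice were injected through the tail vein with 4T1 cells carrying firefly luciferase (4T1-FLuc) at 7 weeks of age and treated from when metastasis was seen, with samples taken after 3 weeks. The saline group had 2 libraries. The cmLumiOpto/PARPi group also had 2 libraries, from mice given the cmLumiOpto gene in an exosome-associated AAV carrying a CD276 antibody, ViviRen (2 mg/kg), which its luciferase needs to give light, and olaparib, an inhibitor of PARP (50 mg/kg). The sample labels call the controls PBS and the material tumour cells taken from lungs, whereas the study describes saline and whole dissociated lung tissue. No library used here came from mice given either agent alone, so the effects of cmLumiOpto and of olaparib cannot be told apart. The labels number the samples within a group and do not say whether they came from separate mice, so p-values measure the spread between these samples only.

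Notch signaling passes between touching cells. A Delta-like or Jagged ligand on a cell binds a Notch receptor on its neighbour, ADAM proteases and then gamma-secretase cut the receptor, and the freed intracellular part enters the nucleus, where it joins the DNA-binding protein RBPJ and a Mastermind coactivator and switches on repressor genes such as Hes1 and Hey1. In the lung, Dll4, Notch1 and Notch4 are known for their part in blood vessels, Notch3 for its part in the mural cells around vessels, and Jag1 and Notch2 for cell fate choice in the airway. RNA levels of receptors and ligands do not measure the cleavage step.

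Promoter sequence is shown for the receptor and the ligand that differed most between groups by unadjusted p, Notch2 and Dll4, with GC boxes (GGGCGG or its reverse complement CCGCCC) in capitals. Each is the 250 bases before a RefSeq start site on GRCm38.p6, 5′ to 3′ on the strand of the gene, at chr3:98013288-98013537 (plus strand) and chr2:119325534-119325783 (plus strand).
Notch2 promoter: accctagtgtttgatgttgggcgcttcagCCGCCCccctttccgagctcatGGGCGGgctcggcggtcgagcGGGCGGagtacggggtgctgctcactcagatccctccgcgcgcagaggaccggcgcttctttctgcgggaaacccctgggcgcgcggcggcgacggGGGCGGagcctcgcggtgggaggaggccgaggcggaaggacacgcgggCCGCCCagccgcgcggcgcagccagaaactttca
Dll4 promoter: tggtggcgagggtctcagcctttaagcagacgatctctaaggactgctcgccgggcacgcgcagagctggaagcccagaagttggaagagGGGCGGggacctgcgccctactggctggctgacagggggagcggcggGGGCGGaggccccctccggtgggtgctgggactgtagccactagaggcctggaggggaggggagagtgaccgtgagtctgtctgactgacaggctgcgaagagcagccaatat
The Notch2 window held 5 GC boxes and the Dll4 window 2, with a GC content of 72.0% and 65.6%. Promoters of 8 of the 10 genes were matched by symbol, 9 windows in all because Dll1 had 2, and Hes1 and Hey1 had no entry. A GC box on either strand was present in 5 of these 9 windows and in 32.7% of 32851 promoter windows of the same length. The core of the RBPJ motif, TGGGAA or its reverse complement TTCCCA, was in 0 of the 9 windows and in 21.6% of all windows.

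By total, the libraries held between 15263375 and 16755228 counts. The smallest detected level was taken as 3 counts, or 0.179 to 0.197 per 1000000 counts of the library total, without TMM scaling. All CPM values given below are the count of a gene per 1000000 counts of its library after TMM scaling. No error other than that of counting enters this floor. The 10 genes had between 35 and 3957 counts per library. Groups were compared in edgeR (quasi-likelihood), and p-values were adjusted over all tested genes by the Benjamini-Hochberg method. None of the 15167 genes had an adjusted p under 0.05 (percent called 0%), against 3221 genes with an unadjusted p under 0.05, and 981 genes by DESeq2 (4.36% lower and 2.10% higher after treatment).

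Among the Notch genes, 0 of 10 passed the adjusted threshold with edgeR and 1, Notch2, with DESeq2. Without the filter on low counts edgeR passed Notch2 as lower and Dll4 and Hey1 as higher, against 4.19% and 3.67% of 25435 genes. At an unadjusted p under 0.05, 1 of the 10 was lower after cmLumiOpto/PARPi (Notch2) and 2 were higher (Dll4 and Hey1), against 12.0% and 9.21% of all tested genes. In 1 gene (Notch2) both treated libraries lay below both saline libraries, and in 4 genes (Dll4, Jag2, Hes1 and Hey1) they lay above. Over all tested genes, the groups were separated in this way for 27.8% (lower) and 27.4% (higher). The median log2 fold change was 0.24 over the 10 genes and 0.02 over all tested genes. With each library left out in turn, the log2 fold change of Notch2 stayed between -0.91 and -0.87. That of Dll4 ranged from 0.59 to 1.10 and that of Hey1 from 0.59 to 2.61. The lowest Dll4 value came without saline replicate 2, and the lowest Hey1 value without cmLumiOpto/PARPi replicate 1. Fewer cells of a type and less RNA per cell cannot be told apart in bulk tissue.

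**Figure D1:**
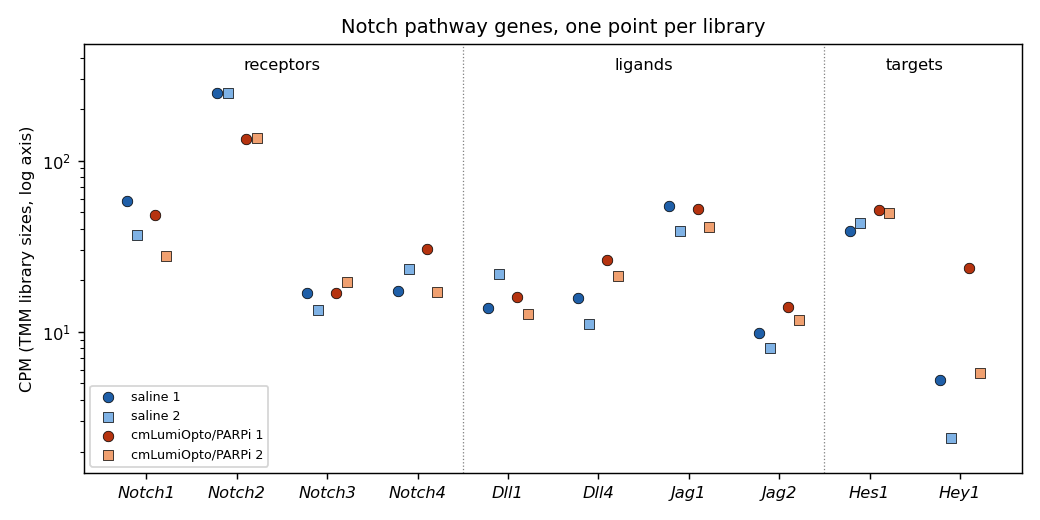
Level of each Notch gene in each library, in CPM on a log axis, with receptors, ligands and targets separated by dotted lines. Blue points are the 2 saline libraries and red or orange points the 2 cmLumiOpto/PARPi libraries. The Notch2 points fall into separate pairs, near 249 CPM in saline and near 135 CPM after treatment, and the Hey1 points spread from 2.38 to 23.5 CPM.

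Notch2, on chromosome 3 from 98013527 to 98150361 of GRCm38 (ENSMUSG00000027878, plus strand), was the receptor with the highest level. It had 248 and 249 CPM in the saline libraries and 133 and 136 CPM in the cmLumiOpto/PARPi libraries. The libraries of each group lay within 3 CPM of each other, and the groups did not overlap. The mean was 249 ± 0.788 CPM (SD, n = 2) in saline and 135 ± 2.04 CPM (SD, n = 2) after treatment, a log2 fold change of -0.89 ± 0.13 (standard error) with an edgeR adjusted p of 0.138. The treated level was 1.85-fold lower. DESeq2 gave a log2 fold change of -0.88 and an adjusted p of 1.55e-05, and over the alternatives tried the adjusted p of Notch2 ranged from 1.55e-05 to 0.440.

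Notch1, on chromosome 2 from 26457903 to 26516663 (ENSMUSG00000026923), is the receptor best known for arterial and T-cell fate. It had 58.1 and 36.7 CPM in the saline libraries and 47.9 and 27.7 CPM in the treated libraries. The groups overlapped, replicate 1 being the higher library in each, and the log2 fold change of -0.33 had a standard error of 0.33. Notch4, on chromosome 17 from 34564268 to 34588503 (ENSMUSG00000015468), an endothelial receptor, had 17.2 and 23.4 CPM in saline and 30.3 and 17.1 CPM after treatment. Its treated libraries enclosed both saline libraries, with a log2 fold change of 0.22 (standard error 0.32). Notch3, on chromosome 17 from 32120820 to 32166852 (ENSMUSG00000038146), had 16.9 and 13.5 CPM in saline and 16.8 and 19.4 CPM after treatment, and its log2 fold change was 0.25 (standard error 0.22). The Notch3 groups barely overlapped, since treated replicate 1 and saline replicate 1 were nearly level. None of these 3 receptors had an unadjusted p under 0.05 in edgeR (0.362 for Notch1, 0.510 for Notch4 and 0.293 for Notch3).

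Dll4, on chromosome 2 from 119325784 to 119335962 (ENSMUSG00000027314), is the ligand of endothelial tip cells and arteries. It had 15.9 and 11.1 CPM in the saline libraries and 26.4 and 21.3 CPM in the treated libraries. Each treated library lay above each saline library, at a log2 fold change of 0.82 ± 0.25 (standard error) with an edgeR adjusted p of 0.175. Jag2, on chromosome 12 from 112907819 to 112929776 (ENSMUSG00000002799), a Jagged ligand of epithelial cells, had 9.78 and 8.04 CPM in saline and 14.0 and 11.8 CPM after treatment. Its groups did not overlap either, and the log2 fold change was 0.54 ± 0.25 (standard error, edgeR adjusted p = 0.282).

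Jag1, on chromosome 2 from 137081456 to 137116644 (ENSMUSG00000027276), was the ligand with the highest level per length in each library. It had 54.4 and 39.0 CPM in saline and 52.2 and 41.1 CPM after treatment, so the spread within each group was larger than the distance between the means of 46.7 and 46.6 CPM. Dll1, on chromosome 17 from 15367354 to 15376872 (ENSMUSG00000014773), a Delta-like ligand known from somite formation and marginal zone B cells, had 13.8 and 21.8 CPM in saline and 16.0 and 12.6 CPM after treatment. The Dll1 groups overlapped, with a log2 fold change of -0.31 (standard error 0.29).

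The target genes encode basic helix-loop-helix repressors. Hes1, on chromosome 16 from 30064384 to 30067796 (ENSMUSG00000022528), had 38.6 and 43.3 CPM in the saline libraries and 51.5 and 49.5 CPM in the treated libraries. The treated libraries lay above the saline libraries by a small margin, with a log2 fold change of 0.30 ± 0.15 (standard error) with an edgeR adjusted p of 0.292. Hey1, on chromosome 3 from 8663359 to 8667256 (ENSMUSG00000040289), a target that is prominent in blood vessels, had 5.27 and 2.38 CPM in saline (84 and 35 counts) and 23.5 and 5.78 CPM after treatment (408 and 96 counts). Treated replicate 1 stood far above the other libraries, whereas treated replicate 2 and saline replicate 1 differed little. The log2 fold change of Hey1 was 1.93 with a standard error of 0.73 (adjusted p = 0.217 by the same edgeR test), and 0.59 without cmLumiOpto/PARPi replicate 1.

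Per kilobase of gene, Notch2 had the highest level of the 10 genes in saline and Hes1 the highest after treatment. In RPKM, the CPM divided by the listed gene length in kilobases, Notch2 had 23.1 ± 0.0731 (SD, n = 2) in saline and 12.5 ± 0.189 (SD, n = 2) after treatment, and Hes1 had 20.1 ± 1.66 and 24.8 ± 0.717 RPKM. Jag1 followed with 9.34 and 6.70 RPKM in saline and 8.95 and 7.05 RPKM after treatment. In saline, Dll1, Dll4 and Notch1 came next, with means of 4.22, 3.50 and 3.33 RPKM and overlapping libraries. Notch4 (2.52 RPKM), Notch3 (1.88 RPKM), Jag2 (1.28 RPKM) and Hey1 (1.17 RPKM) were the lowest in saline, and Notch1 overlapped Notch4 there, as Jag2 did Hey1. After treatment Dll4 came next to Jag1 with 6.19 ± 0.930 RPKM, ahead of Hey1 (4.48 ± 3.84 RPKM), Dll1 (3.39 RPKM), Notch4 (2.94 RPKM), Notch1 (2.66 RPKM), Notch3 (2.24 RPKM) and Jag2 (1.86 RPKM). From Dll4 down to Notch3, each gene's treated libraries overlapped those of its neighbour in this order.

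The receptors summed to 31.3 and 30.3 RPKM in the saline libraries and to 21.5 and 19.1 RPKM in the treated libraries. Notch2 made up 73.5% and 76.4% of this sum in saline and 57.3% and 66.1% after treatment. The share of Notch3 was 6.66% and 5.51% in saline and 9.65% and 12.6% after treatment, and that of Notch4 was 6.83% and 9.58% against 17.4% and 11.1%. For each of these 3 receptors the shares did not overlap between groups, while those of Notch1 did (13.0% and 8.53% against 15.6% and 10.2%). The ligand sum overlapped, with 18.1 and 15.9 RPKM in saline and 21.6 and 17.3 RPKM after treatment. Dll4 made up 22.7% and 18.1% of the ligand sum in saline and 31.7% and 32.0% after treatment. Jag1 held the largest share of the ligand sum in each library, at 51.5% and 42.1% in saline and 41.4% and 40.8% after treatment. These shares are descriptions with no test, and a share can differ because another gene of the same sum does.

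**Figure D2:**
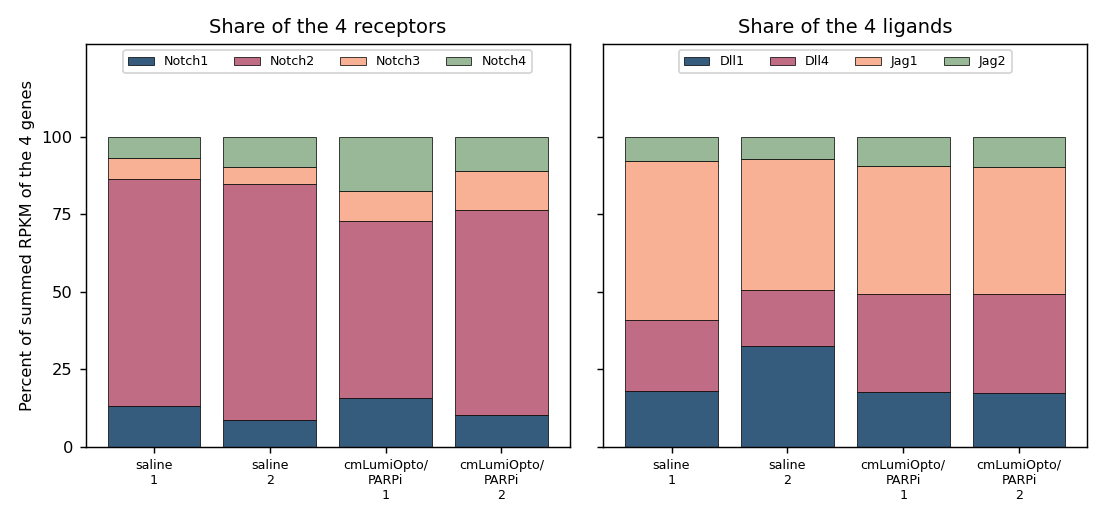
Percent of the summed RPKM of the 4 receptors (left) and of the 4 ligands (right) in each of the 4 libraries. Each bar is a library and each colour a gene. The Notch2 band is 73.5% and 76.4% in saline and 57.3% and 66.1% after treatment, and the Dll4 band is 22.7% and 18.1% in saline and 31.7% and 32.0% after treatment.

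Across all tested genes, log2 fold changes fell with gene length (Spearman's rho = -0.37 over 15167 genes, which share the same 4 libraries). With the genes cut into 5 equal groups by length, the shortest, up to 2093 bases, had a median of 0.31 and the longest, above 7268 bases, a median of -0.27. The 4 receptors lay in the longest group, with listed lengths of 14232 bases for Notch1, 10782 for Notch2, 8089 for Notch3 and 8061 for Notch4, and Hes1, at 2037 bases, lay in the shortest. After subtraction of a loess trend on gene length and mean expression, Notch2 stood at -0.43 in place of -0.89, Hes1 at 0.08 in place of 0.30 and Notch1 at 0.03 in place of -0.33. The loess values of Dll4, Jag2 and Hey1 were 0.73, 0.51 and 1.71, and those of Notch3, Notch4 and Dll1 were 0.34, 0.35 and -0.40. The share of the Notch2 and Hes1 differences that goes with length was not tested.

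**Figure D3:**
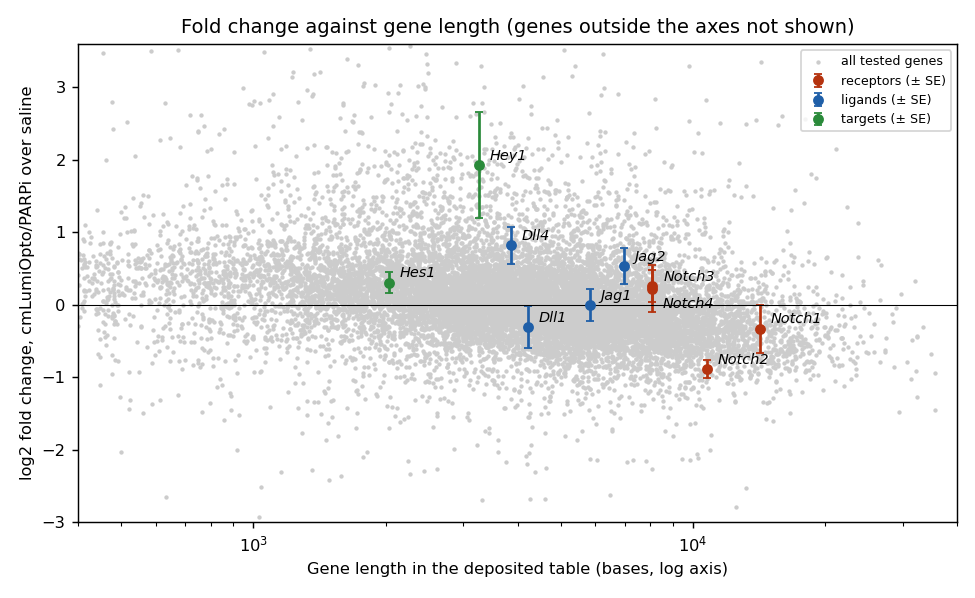
Log2 fold change of cmLumiOpto/PARPi over saline (vertical axis, bars are the standard error) against gene length in bases (log axis). Grey points are all tested genes within the axes, which slope down with length, and coloured points are the 10 Notch genes. Notch2 lies at -0.89 among long genes, and Hey1 lies at 1.93 with the widest bar.

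The rest of the pathway was read from a list of 50 other Notch genes, of which 41 had enough counts to be tested. By unadjusted p under 0.05, 13 of the 41 were lower and 3 were higher after treatment (12.0% and 9.21% of all tested genes), and 0 passed the adjusted threshold with edgeR. With DESeq2, 7 lower and 2 higher genes of the list passed it (4.36% and 2.10% of all tested genes). The median log2 fold change of the list was -0.26, and -0.11 after the loess trend was subtracted. Separated groups were seen in 18 genes with lower and 6 with higher treated levels (27.8% and 27.4% of all tested genes). The genes too low to test were Dll3, Dlk1, Dner, Dtx1, Hes2, Hes3, Hes5, Hes7 and Hey2. Dll3, Hes3 and Hes5 had 0 counts in each library, which is under the floor of 3 counts, and Hey2, a vascular target related to Hey1, had 8 and 2 counts in saline and 20 and 9 after treatment.

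The nuclear partners of Notch made up most of the lower genes, with 7 of 10 lower at an unadjusted p under 0.05 and 1 higher. The shares of all tested genes were 12.0% and 9.21%. The median log2 fold change of the 10 was -0.64 (-0.34 after the loess trend was subtracted). The median listed length of these 10 genes was 10488 bases, against 4127 bases for all tested genes. Ncor1, a corepressor of RBPJ among other factors, had a log2 fold change of -0.65 (standard error 0.14). Spen, a scaffold of the RBPJ corepressor complex, had 76.8 and 93.2 CPM in saline and 41.5 and 46.8 CPM after treatment. Maml1, a Mastermind coactivator that binds the complex of Notch and RBPJ, had 74.9 and 75.8 CPM in saline and 40.9 and 45.8 CPM after treatment, a log2 fold change of -0.80 (standard error 0.14). Each of these 3 genes had an edgeR adjusted p of 0.138. After the loess trend was subtracted, Maml1 stood at -0.65, Spen at -0.53 and Ncor1 at -0.16. Rbpjl, an RBPJ paralog that does not bind Notch, had 8 and 2 counts in saline and 125 and 22 counts after treatment, so its log2 fold change of 3.69 (standard error 1.04) rests on a saline level near the floor.

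The 10 proteases cut the receptor on its way to the surface and after ligand binding. Of them 3 were lower and 2 were higher at an unadjusted p under 0.05 (12.0% and 9.21% of all tested genes). Psenen, a gamma-secretase subunit, had 44.7 and 41.0 CPM in saline and 69.7 and 63.0 CPM after treatment, a log2 fold change of 0.63 (standard error 0.14), or 0.29 after the loess trend was subtracted. Aph1c, a gene for another subunit, had 4.83 and 2.38 CPM in saline and 7.83 and 7.94 CPM after treatment, and is uncertain because reads may be shared with its close copy Aph1b. Furin, which cuts the receptor before it reaches the surface, is named here after its values were seen. It had 279 and 289 CPM in saline and 165 and 199 CPM after treatment. The log2 fold change of Furin was -0.64 (standard error 0.15), or -0.22 after the loess trend was subtracted. The subunits and proteases of the pathway did not all lie on the same side. Of the 12 tested trafficking and turnover genes 3 were lower and 0 were higher by the same rule, and for the 5 glycosyltransferases, which set how receptors answer to each ligand, both counts were 0. They were also 0 for the 3 tested targets, which are named here after their values were seen. Heyl, a relative of Hey1, had 18.6 and 18.0 CPM in saline and 15.3 and 14.9 CPM after treatment, separated groups at a log2 fold change of -0.28 (standard error 0.19). Nrarp, a target that feeds back on Notch, had overlapping groups at -0.23 (standard error 0.33), and Hes6 stood at 0.18 (standard error 0.17) with both treated libraries above the saline libraries. Among the decoy ligands only Dlk2 was tested, with 3.89 and 2.93 CPM in saline and 4.78 and 6.56 CPM after treatment.

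**Figure D4:**
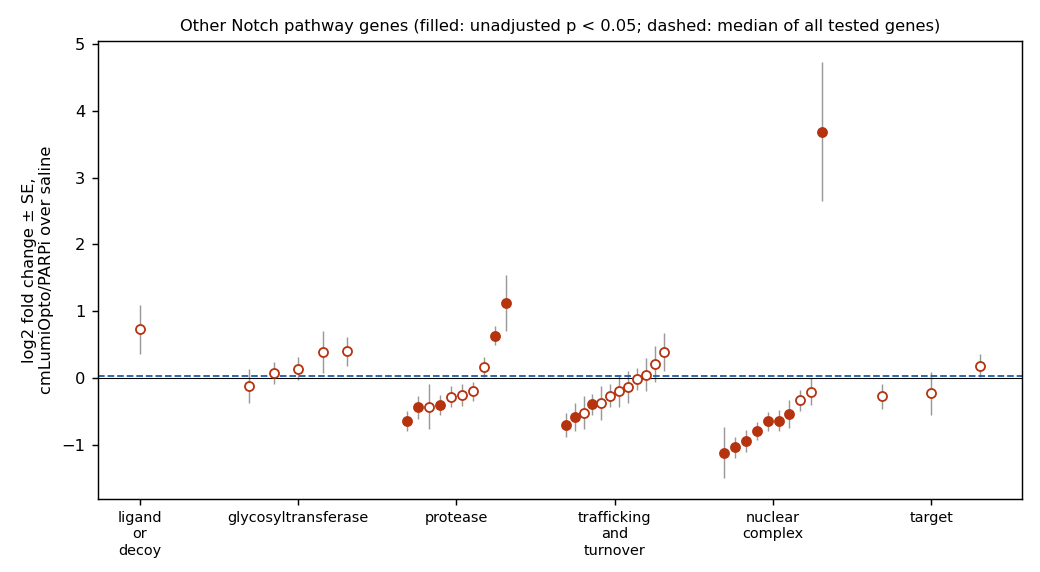
Log2 fold change of cmLumiOpto/PARPi over saline, with its standard error, for the 41 tested genes of the wider Notch list, arranged by role along the horizontal axis. Filled points have an unadjusted p under 0.05 and the dashed line is the median of all tested genes, 0.02. In the nuclear complex 7 filled points lie below 0 and Rbpjl lies at 3.69.

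Cell type markers differed between the libraries too. The 10 endothelial markers summed to 616 and 493 CPM in saline and 978 and 548 CPM after treatment, so the sums overlapped. Of the 10, 3 were higher (Cldn5, Esam and Egfl7) and 0 lower at an unadjusted p under 0.05 in edgeR. The shares of all tested genes were 9.21% and 12.0%. Groups were separated for 4 higher markers and 0 lower (27.4% and 27.8% of all tested genes). The median log2 fold change of the 10 was 0.61, and the defining marker Cdh5 had overlapping groups at 0.01. The 4 arterial markers summed to 125 and 126 CPM against 132 and 85.0 CPM. Efnb2 made up most of that sum, with 108 and 118 CPM in saline and 96.8 and 71.0 CPM after treatment, and was the only one of the 4 with separated groups. Gja5, Sox17 and Bmx had positive log2 fold changes (1.44, 0.58 and 0.65) with overlapping groups, and the median of the list was 0.61. Gja5, a gap junction gene of arteries, had 6.96 and 3.13 CPM in saline and 21.1 and 6.32 CPM after treatment, the lowest and the highest library being those of Hey1. None of the 4 had an unadjusted p under 0.05 in edgeR. Relative to the endothelial sum, Dll4 stood at 2.57% and 2.26% in saline and 2.69% and 3.89% after treatment, and Hey1 at 0.855% and 0.484% against 2.40% and 1.05%. Relative to that sum, Notch1 stood at 9.43% and 7.46% in saline and at 4.90% and 5.05% after treatment, and Notch4 overlapped. The ratios of 5 of the 10 genes were separated between groups. Those of Dll4 and Hey1 were higher after treatment, and those of Notch1, Notch2 and Jag1 were lower. These ratios, chosen after the values were seen, were not computed for all tested genes. A higher endothelial sum lowers the ratio of any gene, and that sum was highest in treated replicate 1 (978 CPM). In CPM, 27.8% (lower) and 27.4% (higher) of all tested genes were separated. The CPM groups of Notch1 and of Jag1 overlapped, with log2 fold changes of -0.33 and -0.0038. The Notch2 ratio was 40.3% and 50.6% in saline and 13.6% and 24.8% after treatment, and that of Jag1 was 8.83% and 7.93% against 5.33% and 7.50%. The Dll4 groups lay less than 0.2 percentage points apart, and how far endothelial content enters these genes was not tested.

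The 5 fibroblast markers, which include Col1a1 and Pdgfra, were each lower in both treated libraries, against 27.8% of all tested genes. Of the 5, 4 were lower at an unadjusted p under 0.05 in edgeR, against 12.0% of all tested genes. The fibroblast markers summed to 3680 and 2493 CPM in saline and 1099 and 1218 CPM after treatment. The 8 mural and smooth muscle markers summed to 272 and 306 CPM in saline and 246 and 213 CPM after treatment. Acta2 and Pdgfrb made up most of that sum, and the markers did not all lie on the same side. Groups were separated for 4 lower markers and 1 higher marker (27.8% and 27.4% of all tested genes). The higher marker, Rgs5, had 7.71 and 4.50 CPM in saline and 13.7 and 11.2 CPM after treatment. The median log2 fold change of the list was -0.22, and that of Notch3 was 0.25. The mammary tumour markers summed to 2551 and 2942 CPM in saline and 2245 and 3329 CPM after treatment, with Krt5 at 0 counts in saline replicate 2. Most of that sum was Krt8, Krt18, Epcam and Cdh1, which lung epithelium also expresses, so it does not separate tumour from lung epithelium. The airway markers summed to 1176 and 88.3 CPM in saline and 5789 and 3020 CPM after treatment. All 5 were higher in both treated libraries, against 27.4% of all tested genes. The alveolar type 2 markers summed to 1551 and 403 CPM against 7681 and 2716 CPM, and the alveolar type 1 markers to 225 and 97.0 CPM against 651 and 332 CPM. Of the 5 type 2 markers, 4 were higher in both treated libraries, against 27.4% of all tested genes. The other, Abca3, was lower in both, with 147 and 129 CPM in saline and 125 and 94.0 CPM after treatment. The leukocyte markers summed to 187 and 194 CPM against 233 and 189 CPM. For the airway, both alveolar and the endothelial sums, saline replicate 2 was the lowest library and treated replicate 1 the highest. Notch2 was level within each group across these same libraries. Hey1, Dll4 and Jag2 were lowest in saline replicate 2 and highest in treated replicate 1. Hes1 was lowest in saline replicate 1 and highest in treated replicate 1. The part of fibroblast, airway, alveolar or vessel content in the Notch genes was not tested.

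**Figure D5:**
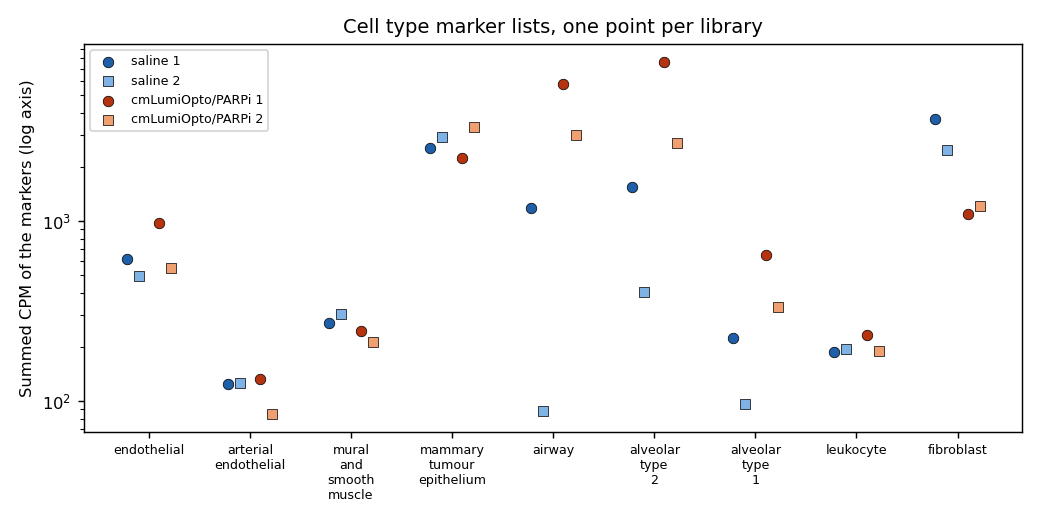
Summed CPM of 9 cell type marker lists in each of the 4 libraries, on a log axis. Blue points are saline and red or orange points cmLumiOpto/PARPi. The airway sums are 1176 and 88.3 CPM in saline and 5789 and 3020 CPM after treatment, and the fibroblast sums are 3680 and 2493 CPM in saline and 1099 and 1218 CPM after treatment.

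The genes whose pattern over the 4 libraries was nearest to Notch2, by Euclidean distance of centred log2 CPM, were 1190001M18Rik (distance 0.0379), Bcl9 (0.0509) and Mical2 (0.0572). Nearest to Dll4 were Gm5617 (0.00613), Ndufb1 (0.0818) and Gm7030 (0.0855). With 4 libraries many genes can lie this close.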

How the data were processed

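RNA-seq reads were aligned by the authors with HISAT2, and the raw counts per gene were deposited together with gene positions and lengths. The study names GRCm38 and the submitters' processing notes mm39. Of 52073 genes found by identifier in GENCODE M21 (GRCm38), 2.76% had the same position, so gene coordinates are those of GENCODE M21. The counting tool and whether it used strand are not given in the sources used here. Genes overlapping the exons of the 10 genes and present in the table had at most 10 counts in any library.

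The counts were tested between 2 saline and 2 cmLumiOpto/PARPi libraries (15263375 to 16755228 counts) with edgeR 4.0.16 (TMM, filterByExpr at its minimum of 10 counts, default glmQLFit and glmQLFTest, Benjamini-Hochberg adjustment, threshold 0.05). A standard error is the log2 fold change divided by the square root of F. RPKM used the listed gene length. A loess trend (span 0.5) on length and mean log2 CPM was subtracted as an alternative. Others were DESeq2 1.42.0, other scalings, no filter, glmQLFit without its legacy option, the replicate number as a block and each library left out. With 2 against 2, an exact permutation test cannot give a two-sided p below 0.333. Replicates were not copies of each other, the chi-square of their counts per degree of freedom being 24.1 in saline and 41.1 after treatment. The script was tested on simulated data.

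The 10 genes and the lists were chosen with earlier results of these data known. Named were the 10 genes, of the wider list up to 4 per direction by smallest unadjusted p and those too low to test, and the 3 genes nearest in pattern to the top gene in each direction. Ratios to endothelial markers were chosen after the values were seen. Some genes of these lists are not reported by name here and remain in the counts and sums.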

Additional observations from a re-analysis of the deposited data

How the results depend on the processing

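The count of genes with an adjusted p under 0.05 was 0 with edgeR's quasi-likelihood test, 2000 without the filter on low counts, 1822 with the replicate number as a block, 981 with DESeq2, and 0 to 2 when each library was left out. The cause of these differences was not tested. Without the filter, Notch2 (-0.90), Dll4 (0.81) and Hey1 (1.92) passed. Same-numbered libraries share only a number. Their deviations correlated across genes (Spearman's rho = 0.30), and with the block Notch2 (-0.89, adjusted p = 0.0115), Dll4 (0.83, adjusted p = 0.0356) and Hey1 (1.77, adjusted p = 0.0198) passed, against 7.05% of all genes lower and 4.96% higher. Over the alternatives the adjusted p of Dll4 ranged from 0.0295 to 0.508 and that of Hey1 from 3.67e-06 to 0.728.

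Upper-quartile scaling shifted the median of all genes by 0.11 on the log2 scale. Under it 4 of the 10 genes were higher and 1 was lower at an unadjusted p under 0.05 in edgeR. Over all 15167 tested genes, 3275 were called by this rule in either direction, and the share higher alone was not computed. With the same scaling Jag1 stood at 0.10, and the median of the wider list was -0.15. The loess trend gave a median of -0.11 for that list, 0.031 for Notch1 and 0.13 for Jag1, and allows no count of calls or of separated groups. The Jag1 value was 0.0053 with the block. When each library was left out, the median of the 10 genes ranged from 0.04 to 0.25 and that of the wider list from -0.29 to -0.21. The number of the 10 with separated groups ranged from 6 to 9, fewer libraries being easier to separate. The share over all tested genes was not computed for these settings. Log2 fold changes ranged from -0.78 to 0.041 for Notch1, 0.10 to 0.43 for Notch3, -0.24 to 0.57 for Notch4, -0.61 to 0.054 for Dll1, -0.22 to 0.26 for Jag1, and -0.91 to -0.87 for Notch2. Depth of 35 counts limits Hey1 in saline replicate 2.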
